A study of Rattus norvegicus with 6 samples.

Results

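Genes of skeletal muscle were followed through RNA libraries made from rat femur: Acta1 (ENSRNOG00000017786), Ckm (ENSRNOG00000016837) and Des (ENSRNOG00000019810). They are 3 of the 32545 gene rows in the table of read counts, and all 3 passed the filter on low counts that left 13431 genes for testing. The genes were chosen by function, as transcripts that would show muscle in a bone sample, with earlier results of these data known. The symbols came with the definition of the set. The RefSeq gene table used here lists the 3 symbols but could be matched to 0 of the 32545 Ensembl IDs, so the pairs of ID and symbol were neither checked nor contradicted.

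The study compared femurs of Wistar rats, an outbred laboratory strain, in a control group (3 libraries, labelled 12, 13 and 14 weeks of age) and a group under chronic sleep deprivation (CSD; 3 libraries, labelled 15, 16 and 17 weeks). The series text gives 12 weeks for both groups. Polyadenylated RNA was sequenced. The sources used here do not say how sleep was prevented, whether each library is a separate animal, or whether muscle, marrow or periosteum was taken off the bone. The p-values therefore reflect only how far these libraries differ among themselves, some of which may be technical.

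Skeletal muscle is built of long fibres whose contractile units, the sarcomeres, slide actin filaments past myosin filaments. Muscles insert on the femur through tendon and periosteum, while bone itself is made and kept by osteoblasts, osteocytes and osteoclasts around a marrow of blood-forming cells. Acta1 encodes skeletal alpha-actin, the main actin of the thin filament. Ckm encodes the muscle creatine kinase, which restores ATP from creatine phosphate. Des encodes desmin, the intermediate filament that ties neighbouring myofibrils together at their Z discs and is also made in heart and smooth muscle.

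Every CSD library had more of all 3 muscle transcripts than any control, which was also so for 8.77% of the 13431 tested genes. All 3 differed widely within the groups too. Mean levels were 15.3-fold (Acta1), 30.4-fold (Ckm) and 12.4-fold (Des) those of the controls. Across the 3 controls alone the levels spanned 364-fold, 89.7-fold and 24.1-fold. No gene of the 3 passed the test across all genes, in which 0 of 13431 genes (0%) had an adjusted p under 0.05 (edgeR's quasi-likelihood test with Benjamini-Hochberg adjustment). At an unadjusted p under 0.05 that test gave 1679 of the 13431 genes, all 3 muscle genes among them. So wide a cut does not set these 3 apart. DESeq2, fitted to all genes with a read, called 298, and limma-voom called 0.

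**Figure D1:**
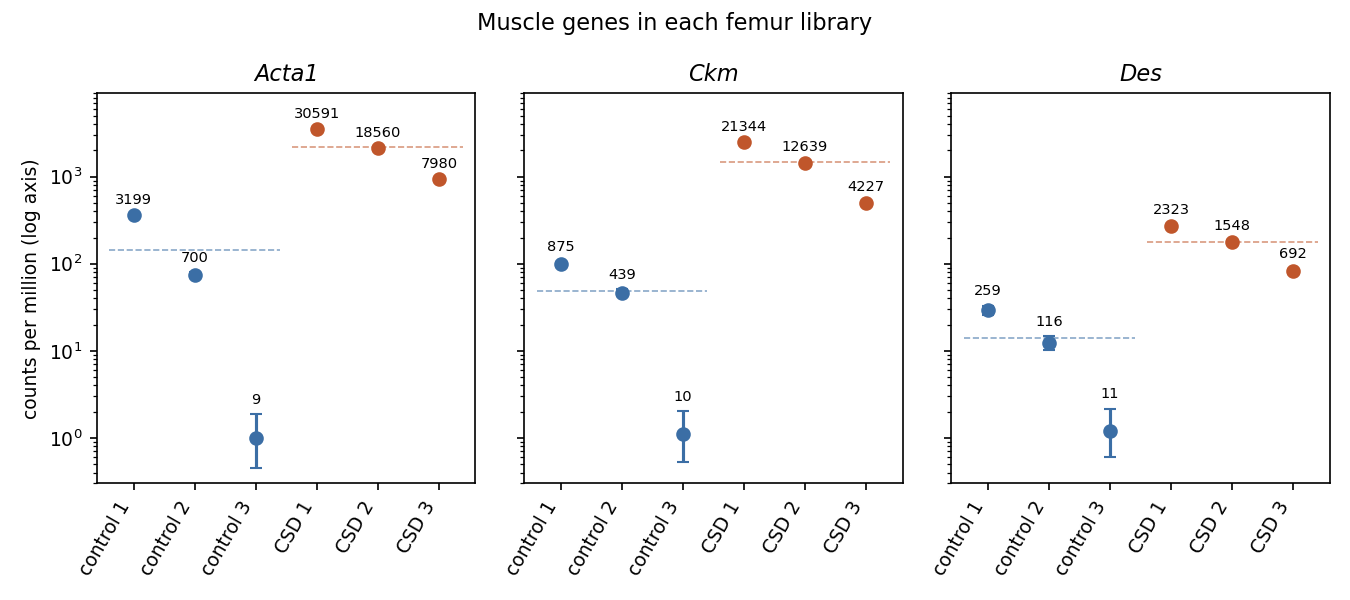
Level of each muscle gene in CPM (log axis) in the 3 control (blue) and 3 CSD (orange) libraries; bars are 95% exact Poisson intervals for counting error, numbers are reads and dashed lines are group means. Every CSD point lies above every control point in each panel, and control 3, with 9, 10 and 11 reads, lies far below the other controls.

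Acta1, the thin filament gene, had 3199, 700 and 9 reads in controls 1, 2 and 3. Levels are given as CPM (counts per 1000000 reads in tested genes, with library size adjusted by the TMM factor described under processing). In the same order the controls had 359, 74.2 and 0.986 CPM. The CSD libraries 1, 2 and 3 had 30591, 18560 and 7980 reads, or 3564, 2129 and 940 CPM. The groups did not overlap, but the lowest CSD library was only 2.62-fold above control 1, while control 1 was 4.84-fold above control 2 and control 2 was 75.2-fold above control 3. Ordered by reads among all genes of a library, Acta1 stood at place 21 in CSD 1 and at place 13387 in control 3. It averaged 145 ± 189 CPM over the controls and 2211 ± 1314 CPM over the CSD libraries (SD, n = 3). The fitted log2 fold change was 3.93 (SE 1.37; edgeR adjusted p = 0.334). Acta1 codes for a protein nearly identical to the other actins, so some reads may have been given to those genes or set aside as not unique. Reads that were not unique took 8.56% to 9.46% of a whole library. The part that came from Acta1 is not known.

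Ckm, the energy buffer enzyme, had 875, 439 and 10 reads in controls 1, 2 and 3, or 98.2, 46.5 and 1.10 CPM. In CSD 1, 2 and 3 it had 21344, 12639 and 4227 reads, or 2487, 1450 and 498 CPM. The lowest CSD library was 5.07-fold above the highest control, the widest gap between the groups among the 3 genes. Controls averaged 48.6 ± 48.6 CPM and CSD libraries 1478 ± 995 CPM (SD, n = 3). The fitted log2 fold change was 4.93 (SE 1.20; edgeR adjusted p = 0.223). Ckm was also the only gene of the 3 that DESeq2 called on all genes (adjusted p = 0.0305), where 1.40% of genes with an adjusted p were called higher. DESeq2 gave an adjusted p of 0.240 for Acta1 and 0.0575 for Des.

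Des, the Z disc filament gene, had the fewest reads of the 3 in every library but control 3. Controls 1, 2 and 3 held 259, 116 and 11 reads, or 29.1, 12.3 and 1.21 CPM. CSD 1, 2 and 3 held 2323, 1548 and 692 reads, or 271, 178 and 81.5 CPM. The lowest CSD library was 2.80-fold above the highest control. Over the controls it averaged 14.2 ± 14.0 CPM, and over the CSD libraries 177 ± 94.6 CPM (SD, n = 3). The fitted log2 fold change was 3.64 (SE 0.834; edgeR adjusted p = 0.192). Des had the smallest standard error of the 3 genes and spread least within the controls.

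Libraries that do not overlap between the groups were not rare in these data: 8.77% of the tested genes had every CSD library above every control. A fitted log2 fold change above 3 was rarer, at 0.685% of tested genes, and all 3 muscle genes were beyond it. The genes were chosen with earlier results of these data known, so this share and the places below are description, not a test. By size of fold change Ckm stood at place 16 of 13431, Acta1 at 45 and Des at 56, while the median log2 fold change of all tested genes was 0.00. By p the order turned: Des stood at place 150, Ckm at 184 and Acta1 at 797. Their spread among controls also ranked high, at places 2 (Acta1), 17 (Ckm) and 43 (Des). Much of it lay in control 3, whose log2 CPM, from 9, 10 and 11 reads, was 0.28 (Acta1), 0.40 (Ckm) and 0.52 (Des). In controls 1 and 2 log2 CPM of these genes lay between 3.65 and 8.49. The SD of log2 CPM among controls was 4.24 for Acta1, 3.32 for Ckm and 2.25 for Des, against a median of 0.21 over all tested genes. Among CSD libraries these SDs were 0.97, 1.18 and 0.88 (median of all genes 0.21).

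**Figure D2:**
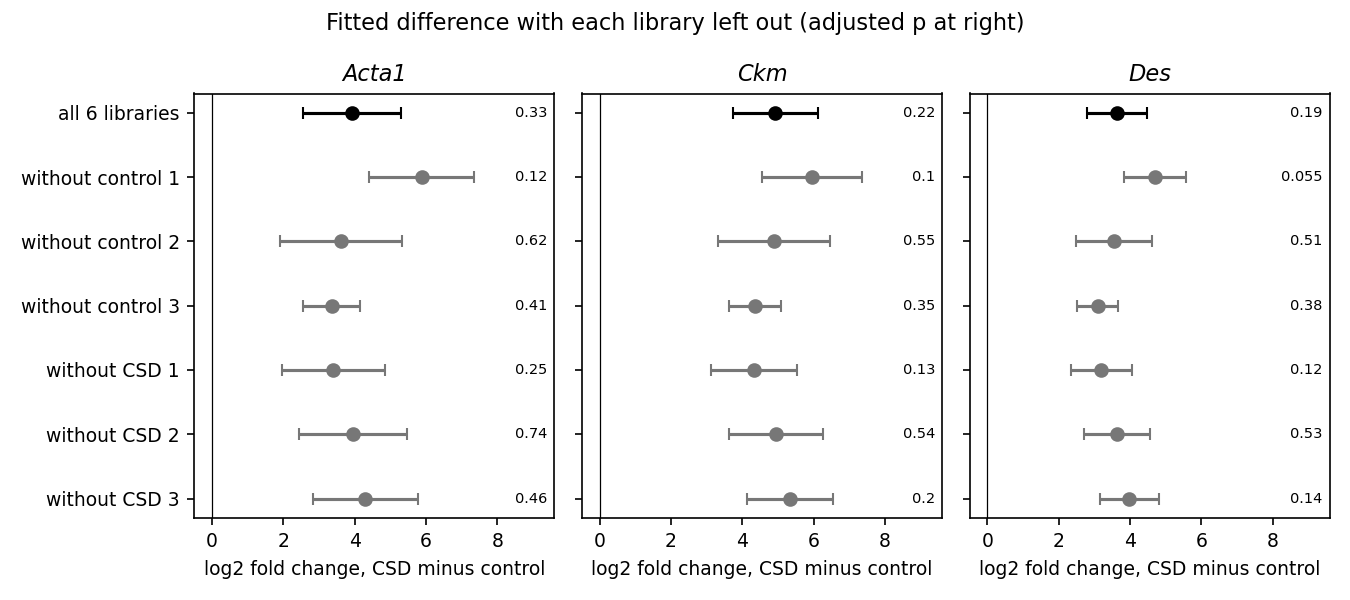
Fitted log2 fold change (CSD minus control, x axis) of each muscle gene with all 6 libraries (black) and with 1 library left out at a time (grey); bars are standard errors and numbers are edgeR adjusted p. All 21 estimates lie above 0, from 3.10 to 5.95, and none has an adjusted p under 0.05.

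Leaving out control 1 moved the estimate of each gene furthest, and leaving out control 2, control 3 or CSD 1 lowered all 3. Control 2 lowered them least, to 3.62 (Acta1), 4.90 (Ckm) and 3.55 (Des). Without control 1, the control with the most muscle gene reads, the log2 fold change of Acta1 was 5.88 (SE 1.47), that of Ckm 5.95 (SE 1.39) and that of Des 4.70 (SE 0.863). Without control 3, which held almost none, they were 3.35, 4.35 and 3.10, and the standard error of Acta1 was 0.798 against 1.37 with all libraries. Without CSD 1, the library with the most muscle gene reads, they were 3.40, 4.32 and 3.19. With control 1, control 3 or CSD 1 out, edgeR's adjusted p for the 3 genes stayed between 0.0548 and 0.412. It was 0.510 to 0.621 without control 2, 0.528 to 0.745 without CSD 2 and 0.143 to 0.461 without CSD 3. In bulk RNA, more muscle fibre in a sample and more of these transcripts per fibre cannot be told apart.

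Together the 3 genes took 0.0518% (95% Wilson interval 0.0503% to 0.0534%) of the reads in genes in control 1 and 0.0136% (0.0129% to 0.0144%) in control 2. In control 3 the share was 0.000345% (0.000242% to 0.000493%), from 30 reads. CSD 1 had 0.632% (0.627% to 0.638%), CSD 2 had 0.342% (0.338% to 0.346%) and CSD 3 had 0.144% (0.142% to 0.147%). Intervals cover counting error only, and between any pair of libraries they did not overlap. The 3 genes thus ranked the 6 libraries alike, with CSD 1 highest, then CSD 2, CSD 3, control 1, control 2 and control 3.

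Depth did not follow this order. Libraries held 8366443 to 9572898 reads in genes, the fewest in control 1. The share of all reads that fell in genes was 36.2% to 36.7% in controls and 37.1% to 38.2% in CSD. It was higher in each CSD library and, within CSD, lowest in CSD 1, where the muscle genes were highest. Whether depth or this share bears on the muscle gene levels was not tested. Labelled age rose from 12 to 17 weeks across the libraries while the muscle genes were lower at each later age inside a group and higher in the group labelled older. Labelled age does not overlap between the groups and cannot be told apart from treatment, although the series text gives 12 weeks for both groups. The part of attached muscle in these values was not tested. The labelled tissue could not be checked against bone, tendon, smooth muscle, fat or blood cell markers, because their IDs could not be paired with names here. For the same reason the wider muscle lists (other sarcomere proteins, calcium handling, myogenic regulators) were not compared.

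The proportions between the 3 genes were not the same in every library. Read ratios are compared here only between libraries for a fixed pair of genes, since transcript length then cancels. Acta1 had 3.66 reads per Ckm read in control 1 (95% exact binomial interval 3.39 to 3.94), 1.59 (1.41 to 1.80) in control 2 and 0.900 (0.324 to 2.46) in control 3. In CSD 1, 2 and 3 it had 1.43 (1.41 to 1.46), 1.47 (1.44 to 1.50) and 1.89 (1.82 to 1.96). Control 1 thus stood apart, with more actin per creatine kinase than any other library. Acta1 reads per Des read were 12.4 (10.9 to 14.1) in control 1 and 11.5 to 13.2 in the CSD libraries, but 6.03 (4.95 to 7.41) in control 2 and 0.818 (0.300 to 2.17) in control 3.

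Ckm reads per Des read separated the groups. The ratio was 3.38 (2.94 to 3.90), 3.78 (3.08 to 4.68) and 0.909 (0.346 to 2.36) in controls 1, 2 and 3. It was 9.19 (8.80 to 9.59), 8.16 (7.74 to 8.61) and 6.11 (5.64 to 6.63) in CSD 1, 2 and 3. Controls averaged a log2 ratio of 1.18 ± 1.14, and CSD libraries one of 2.95 ± 0.30 (SD, n = 3; two-sided exact permutation test, p = 0.1, the smallest that 3 against 3 can give; 0.3 after Benjamini-Hochberg adjustment over 3 ratios). The exact permutation p was 0.3 for Acta1 over Des (adjusted 0.45) and 0.8 for Acta1 over Ckm (adjusted 0.8). These tests were chosen after the values were seen.

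**Figure D3:**
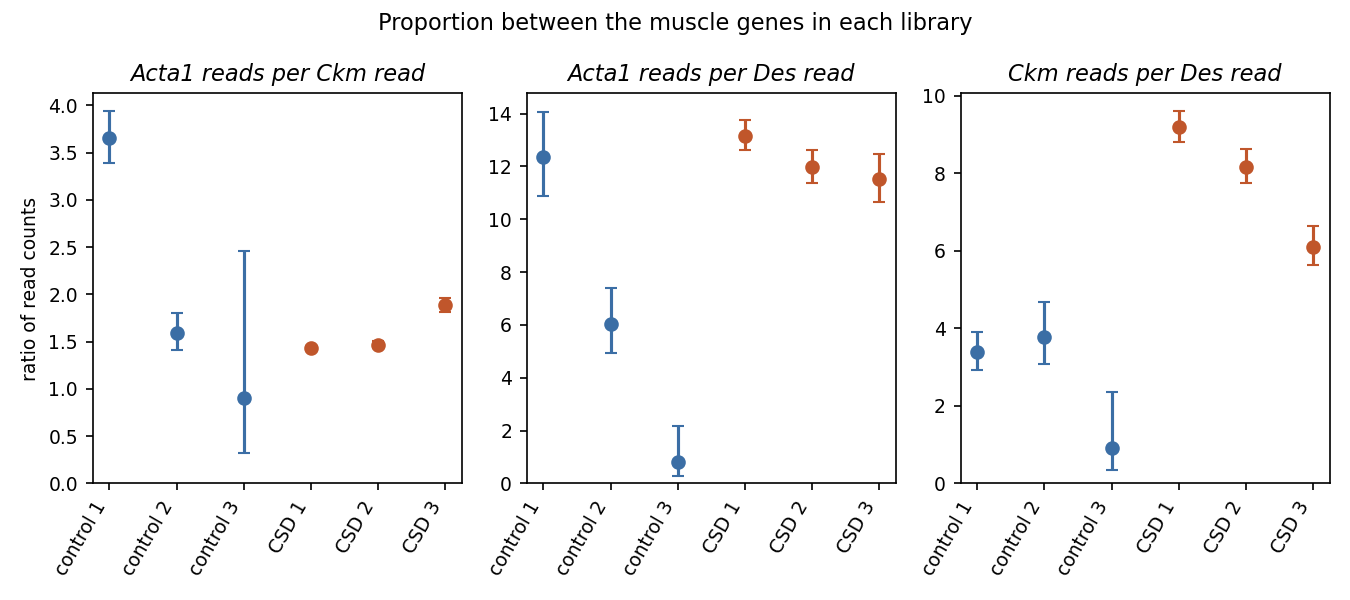
Reads of one muscle gene per read of another in each library, control in blue and CSD in orange; bars are 95% exact binomial intervals for counting error. Ckm per Des lies between 6.11 and 9.19 in CSD and at 3.78 or less in controls, whereas Acta1 per Ckm is highest in control 1.

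The 3 genes varied together over the 6 libraries. Pearson's r of log2 CPM was 0.998 for Ckm and Des, 0.989 for Acta1 and Ckm and 0.988 for Acta1 and Des, given as a description because the libraries fall into 2 groups. Control 3, with 9, 10 and 11 reads, also lay far from the rest. In the mean profile of the 3 genes, centred on each gene's mean, it was at -6.38 and the other libraries were between -1.64 and 3.61. How far r rests on control 3 was not tested. Of the 13428 other tested genes, 100 (0.745%) correlated at 0.95 or more with the mean profile of the 3 and 39 (0.290%) as strongly in the opposite direction. The median log2 fold change of these 100 was 2.09 (quartiles 0.53 and 3.38), and 31 of them were above 3, out of 89 such genes besides the muscle genes. They took 1.08% to 1.47% of the reads in genes in controls and 1.55% to 2.45% in CSD. A profile that is high in CSD picks out genes of that direction, so these counts are no test of it.

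The gene most like the 3 was ENSRNOG00000029745 (r = 0.999), with 525, 249 and 5 reads in controls 1, 2 and 3 and 10809, 6667 and 2130 in CSD 1, 2 and 3. It was followed by ENSRNOG00000013262 (r = 0.996), with 277, 153 and 2 reads in controls and 9444, 5333 and 1311 in CSD. Their log2 fold changes were 4.73 and 5.30 (edgeR adjusted p = 0.223 and 0.176). Both repeat the muscle genes' order of libraries, with control 3 almost at 0. The profiles most opposite were ENSRNOG00000043167 (r = -0.994) and ENSRNOG00000008174 (r = -0.993), whose range was narrow: 83 to 237 and 44 to 97 reads over the 6 libraries. The files pair none of these 4 IDs with a name.

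**Figure D4:**
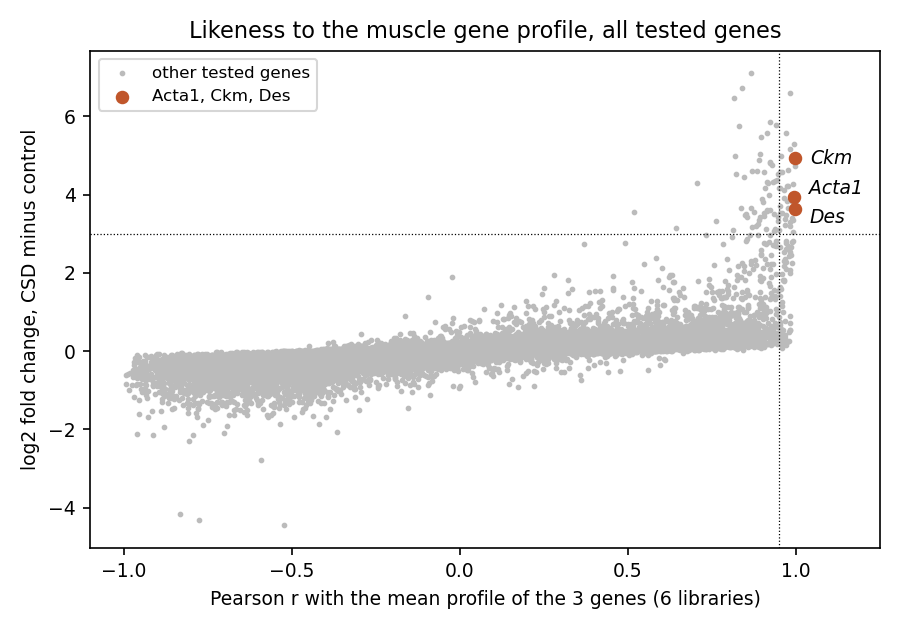
Each point is a tested gene, by its Pearson r with the mean log2 CPM profile of Acta1, Ckm and Des over 6 libraries (x axis) and its log2 fold change, CSD minus control (y axis); dotted lines mark 0.95 and 3. The muscle genes lie at the upper right, at log2 fold changes of 3.93, 4.93 and 3.64.

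Whether promoter sequence bears on the measured levels was not tested. As background, the DNA just upstream of each start is shown, from RefSeq on the GRCr8 build. This is not the build of the counts, and the sequences were found by symbol. The E box (CANNTG) is the core bound by myogenic factors such as MyoD, the CArG box is bound by serum response factor, the MCAT element (CATTCC) by TEAD factors, and TATAAA is a TATA box. Matches to these 4 motifs on either strand are in capitals in the 250 bases before each start.

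Acta1 (GRCr8 chr19:68784195-68784444, minus strand): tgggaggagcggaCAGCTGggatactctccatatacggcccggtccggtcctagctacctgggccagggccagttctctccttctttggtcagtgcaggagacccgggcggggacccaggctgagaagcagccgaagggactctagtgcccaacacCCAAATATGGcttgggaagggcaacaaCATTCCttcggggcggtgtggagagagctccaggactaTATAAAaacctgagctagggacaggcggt
Ckm (GRCr8 chr1:88189211-88189460, plus strand): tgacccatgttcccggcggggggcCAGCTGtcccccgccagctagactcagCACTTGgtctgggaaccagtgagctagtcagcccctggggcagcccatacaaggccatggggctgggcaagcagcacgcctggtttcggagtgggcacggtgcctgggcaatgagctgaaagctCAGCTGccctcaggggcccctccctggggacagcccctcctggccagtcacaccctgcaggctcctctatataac
Des (GRCr8 chr9:84299376-84299625, plus strand): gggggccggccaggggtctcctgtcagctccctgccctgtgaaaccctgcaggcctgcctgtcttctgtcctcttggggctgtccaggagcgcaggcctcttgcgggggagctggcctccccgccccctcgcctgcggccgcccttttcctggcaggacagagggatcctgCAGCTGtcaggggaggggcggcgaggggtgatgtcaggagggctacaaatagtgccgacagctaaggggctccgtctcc

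Each of the 3 windows held an E box of the letters CAGCTG, which is a case of CANNTG: 1 for Acta1, 2 for Ckm and 1 for Des. Among 33469 rat promoter windows of the same length, 12.0% held CAGCTG and 65.5% held any CANNTG. The Ckm window also held an E box of the letters CACTTG, for 3 in all. Of these genes only Acta1 had a CArG box (in 1.50% of all windows), an MCAT element (12.1%) and TATAAA (12.9%). The CArG box lay 94 to 85 bases before the start, the MCAT element 67 to 62 and TATAAA 29 to 24. These are matches of letters, and no binding was measured.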

How the data were processed

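Polyadenylated RNA of 6 rat femur libraries was measured, 3 per group by sample title. The authors deposited raw counts of reads for each gene as 1 table, made with HISAT2 2.2.1, HTSeq 0.12.4 and rn6 per the submitters' processing notes; the sources used here do not give annotation release or strand setting, so reads of overlapping or antisense genes cannot be told apart. The 5 closing rows that name no gene stayed out of sizes and tests; reads outside annotated features alone were 45.5% to 47.1% of a library.

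The members and lists were chosen with earlier results of these data known. Genes passing edgeR's filterByExpr (13431 genes) were scaled with TMM factors and tested with edgeR 4.0.16's quasi-likelihood test, CSD against control, with no covariate and Benjamini-Hochberg adjustment over all tested genes at 0.05 (R 4.3.3). Log2 fold changes use a prior count of 0.125, and SE is their size over the root of F. Likeness is Pearson's r of log2 CPM (prior count 2). The script was tested on simulated data. Alternatives were other scalings and filters, DESeq2 1.42.0, limma-voom (limma 3.58.1), a replicate block and leaving out each library. Genes named are the 3 members and, by rule, the 2 IDs most like and the 2 most unlike their profile. No protein sequence was used here.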

Additional observations from a re-analysis of the deposited data

How the results depend on the processing

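The 3 muscle genes were higher in CSD under each of the alternatives tried, with log2 fold changes from 3.10 to 6.13 and adjusted p from 0.0127 to 0.745. Most alternatives left them above 0.05. Without a filter Des passed in edgeR (log2 fold change 3.64, adjusted p = 0.0413), where 112 genes passed. DESeq2 called Ckm on all genes (4.92, adjusted p = 0.0305), where 1.40% of 14957 genes with an adjusted p were called higher. It also called Ckm on the filtered genes (4.92, adjusted p = 0.0292), where 278 of 13431 genes were called. That last fit was chosen after seeing the data, as was TMM scaling without genes of like profile. In an edgeR fit with a replicate block by title number, Ckm (log2 fold change 5.67, adjusted p = 0.0249) and Des (4.06, adjusted p = 0.0127) passed and Acta1 (5.33, adjusted p = 0.162) did not. In that fit 104 of 13431 genes passed. Samples share only a number: deviations of same-numbered libraries over all tested genes correlated at -0.01, -0.06 and 0.17. limma-voom gave log2 fold changes of 4.37 (Des) to 6.13 (Ckm). With 1 library left out Acta1 ran from 3.35 to 5.88, Ckm from 4.32 to 5.95 and Des from 3.10 to 4.70. With scaling by library totals only, the median over all tested genes was -0.13, and this gave the muscle genes 3.80, 4.80 and 3.51. The count of 0 genes called became 112 without a filter, 298 with DESeq2 on all genes, 278 with DESeq2 on the filtered genes, 104 with the replicate block (30 of them of like profile) and 0 to 230 with 1 library left out (230 without CSD 1, 151 without control 1, 73 without CSD 3, otherwise 0); the cause was not tested. The share of the 3 genes in gene reads was 0.351 percentage points higher in CSD, 0.221 without CSD 1 and 0.465 without CSD 3; over all rows of the table it was 0.131, from the larger total. Control 3's 9 to 11 reads per gene limit every fold that rests on it.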

Other observations

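Genes that share the muscle profile (r of 0.95 or more, 100 of the 13428 other tested genes, or 0.745%) were counted among the genes that edgeR or DESeq2 called under other settings. All 100 had a log2 fold change above 0 in the main fit, so the number of calls higher in CSD is given too. They were 24 of the 298 genes called by DESeq2 on all genes (209 higher). Of the 112 called by edgeR without a filter (104 higher) they were 23, and of the 151 called without control 1 (79 higher) they were 27. Without CSD 1, the library with the most reads of all 3 muscle genes, they were 2 of 230, but only 36 of those calls were higher in CSD and 194 were lower. Without CSD 3 they were 5 of 73, with all 73 higher. The profile was computed over all 6 libraries, so it is not independent of these calls.

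Control 3 held 30 reads of the 3 genes together among 8685985 reads in genes, whereas its neighbour in level, control 2, held 1255 among 9236883. In control 3 the 3 genes had nearly equal reads (9, 10 and 11), unlike in the other 5 libraries, where Acta1 led and Des was lowest.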
